A study of Homo sapiens with 20 samples.

Results

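SPOCD1, IL7R and TRIML2 are 3 genes whose signal was lost from HepaRG cells cultured with dimethyl sulfoxide (DMSO). They were selected on the fitted log2 differences of these same arrays, as genes among the largest falls on DMSO addition or the largest rises after its removal. All probes whose RefSeq accession belongs to one of these genes were taken, which gave 1 probe per gene, 3 of the 42405 probes on the array. SPOCD1 is measured by A_23_P431388 (NM_144569), IL7R by A_23_P404494 (NM_002185) and TRIML2 by A_23_P350005 (NM_173553). In the GRCh38.p14 assembly, SPOCD1 lies on chromosome 1 from 31790422 to 31816022, IL7R on chromosome 5 from 35856891 to 35879603 and TRIML2 on chromosome 4 from 188091272 to 188109603.

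HepaRG cells come from a human hepatoma, and their progenitors can become hepatocyte-like or biliary-like in culture. Their RNA was measured on 20 single-color Agilent arrays in 5 conditions of 4 arrays, which the methods describe as independent biological replicates. Cells of every condition grew in William's E medium with serum, insulin and hydrocortisone. D4 cells were proliferating progenitors taken on day 4 after seeding, and D15 cells were taken on day 15, both without DMSO. D30 − DMSO cells stayed in the same medium until day 30, whereas D30 + DMSO cells received 2% DMSO from day 15. D34 ± DMSO cells were treated like D30 + DMSO and then kept for 4 days without DMSO. All conditions come from 1 cell line, so none of them samples a second donor. All signals are given in units in which the 75th percentile of each array equals 546, and Feature Extraction, the scanner software, decided whether a probe was well above background.

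The receptor for interleukin 7 consists of the alpha chain encoded by IL7R and the common gamma chain encoded by IL2RG, and it signals through the kinases JAK1 and JAK3 to STAT5. It is best known for its role in the survival and development of lymphocytes, and the alpha chain also takes part in the receptor for TSLP. SPOCD1 encodes a nuclear protein with a SPOC domain that, in the male germ line of the mouse, acts with PIWIL4 in the piRNA-directed DNA methylation of transposons. TRIML2 encodes a relative of the tripartite motif (TRIM) proteins with a SPRY domain and has been described as a target gene of p53.

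The promoters of the 3 genes are shown because the genes lost and regained their signal together. They were taken from RefSeq (GRCh38.p14) and run from 250 bases before to 50 bases after each start, in the direction of transcription. The SPOCD1 promoter lies at chr1:31815973-31816272 on the minus strand and the IL7R promoter at chr5:35856641-35856940 on the plus strand. TRIML2 has 2 listed promoters on the minus strand, the first at chr4:188109554-188109853 and the second at chr4:188105538-188105837. Capitals mark every match, on either strand, to one of 9 motifs. These were the TATA box TATAAA, the AP-1 motif TGANTCA, the GC box GGGCGG, the CCAAT box, the E-box CACGTG, the cyclic AMP response element TGACGTCA, the nuclear receptor motif AGGTCA, and the NF-kB and HNF1 motifs.
SPOCD1: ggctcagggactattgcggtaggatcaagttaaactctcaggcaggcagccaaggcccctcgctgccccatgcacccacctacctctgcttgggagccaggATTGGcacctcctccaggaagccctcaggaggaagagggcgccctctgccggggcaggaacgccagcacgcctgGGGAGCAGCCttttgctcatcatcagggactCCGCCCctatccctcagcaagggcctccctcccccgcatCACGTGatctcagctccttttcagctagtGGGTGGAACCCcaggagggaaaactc
IL7R: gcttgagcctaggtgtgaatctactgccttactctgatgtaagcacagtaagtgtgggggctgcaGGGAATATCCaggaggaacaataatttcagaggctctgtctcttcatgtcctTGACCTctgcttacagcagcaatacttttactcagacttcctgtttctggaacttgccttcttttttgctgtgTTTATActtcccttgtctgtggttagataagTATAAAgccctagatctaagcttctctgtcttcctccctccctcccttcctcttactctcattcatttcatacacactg
TRIML2, first promoter: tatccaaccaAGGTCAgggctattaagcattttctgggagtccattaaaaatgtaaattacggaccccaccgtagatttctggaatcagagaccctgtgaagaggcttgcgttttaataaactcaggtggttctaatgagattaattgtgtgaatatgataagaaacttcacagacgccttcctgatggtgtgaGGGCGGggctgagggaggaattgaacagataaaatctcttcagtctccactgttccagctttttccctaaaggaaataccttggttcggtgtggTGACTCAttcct
TRIML2, second promoter: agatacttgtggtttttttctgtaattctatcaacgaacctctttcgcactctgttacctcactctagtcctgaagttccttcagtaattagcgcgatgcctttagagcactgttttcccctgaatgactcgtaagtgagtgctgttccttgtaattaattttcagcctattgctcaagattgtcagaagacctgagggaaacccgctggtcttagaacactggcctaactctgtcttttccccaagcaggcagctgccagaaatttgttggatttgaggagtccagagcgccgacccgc

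The promoters differed in these features. IL7R held a TATAAA 29 bases before the start and another on the opposite strand, and 11.5% of the 35116 promoters in the RefSeq table held this motif. The SPOCD1 promoter had no TATAAA but held a CACGTG 5 bases before the start, found in 7.26% of promoters, a GC box (44.9%) and a CCAAT on the opposite strand (34.6%). The first TRIML2 promoter held a TGACTCA after the start (the AP-1 motif is in 7.71% of promoters), a GC box and an AGGTCA. IL7R also matched AGGTCA, on the opposite strand, and 13.8% of all promoters did. The loose form of the NF-kB motif was matched 3 times in SPOCD1, with 2 of the matches overlapping on opposite strands, and once in IL7R. However, 58.7% of all promoters hold that form. No motif occurred in all 3 genes, the second TRIML2 promoter matched none of the 9, and the cyclic AMP response element and the HNF1 motif matched in none. The IL7R promoter contained 0 CpG, as did 3.96% of all promoters, against 9 in SPOCD1, 6 and 9 in the TRIML2 promoters and a median of 14 over the table. The share of G and C was 62.7% in SPOCD1, 44.3% in IL7R, and 43.3% and 46% in TRIML2. These matches describe the letters of the windows only.

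All 3 probes were well above background on each of the 16 arrays outside D30 + DMSO and on 0 of the 4 arrays of D30 + DMSO, and none was saturated. In bulk RNA of this kind, fewer cells of a type and less RNA per cell cannot be told apart. The number of arrays limits the precision of each value. The 20 arrays lie on 4 slides scanned in 2 sessions, and slide 4, scanned alone in the second session, holds replicate 4 of each condition and replicate 3 of D15 and of D30 + DMSO. The 75th percentile lay between 407 and 766 intensity units before scaling, and r between replicates, across genes, was 0.955 to 0.992.

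SPOCD1 had the steepest profile of the 3 genes. At D4, its signal was 2464, 1687, 1587 and 1181 on replicates 1 to 4 (1730 ± 536, SD, n = 4). At D15, the arrays read 81.1, 128, 123 and 56.4 (97.2 ± 34.4), and at D30 − DMSO they read 81.8, 96.0, 89.8 and 455 (181 ± 183). Replicate 4 of D30 − DMSO stood far above the other 3 arrays of its condition and sets most of that spread. The D30 + DMSO arrays read -0.53, -2.0, 1.04 and 3.47, that is, around 0 after background subtraction. The D34 ± DMSO arrays returned to 75.8, 130, 139 and 343 (172 ± 118), a range that overlaps those of D15 and D30 − DMSO and lies below that of D4. In both D30 − DMSO and D34 ± DMSO the highest array was replicate 4, whereas replicate 4 was the lowest at D4 and at D15.

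IL7R, the interleukin 7 receptor alpha chain, was likewise highest at D4 and under background at D30 + DMSO, with less spread between arrays. At D4, its signal was 386, 466, 406 and 261 (380 ± 86.2, SD, n = 4). It was 63.4, 50.5, 44.7 and 31.8 at D15 (47.6 ± 13.1) and 34.3, 36.4, 44.1 and 65.2 at D30 − DMSO (45.0 ± 14.1). The ranges of these 2 conditions overlapped, and both lay below every D4 array. At D30 + DMSO, the arrays read 0.68, 1.31, -3.19 and 0.26. At D34 ± DMSO, IL7R was measured at 66.4, 66.4, 78.1 and 67.3 (69.6 ± 5.72), with every array above all arrays of D15 and of D30 − DMSO, though by little more than 1 unit over the highest of D30 − DMSO.

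TRIML2, the TRIM relative, read 357, 251, 224 and 251 at D4 (271 ± 58.9, SD, n = 4). Its signal was 75.5, 35.0, 43.6 and 33.3 at D15 (46.9 ± 19.6) and 47.5, 32.5, 45.3 and 53.2 at D30 − DMSO (44.6 ± 8.77), again with overlapping ranges. On the D30 + DMSO arrays it was -0.87, 0.84, 3.27 and 3.78. At D34 ± DMSO it was 49.2, 86.9, 46.5 and 197 (94.9 ± 70.6), so that replicates 1 and 3 lay within the range of D30 − DMSO and replicates 2 and 4 above it. None of the D34 ± DMSO arrays of TRIML2 reached the lowest D4 array.

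**Figure D1:**
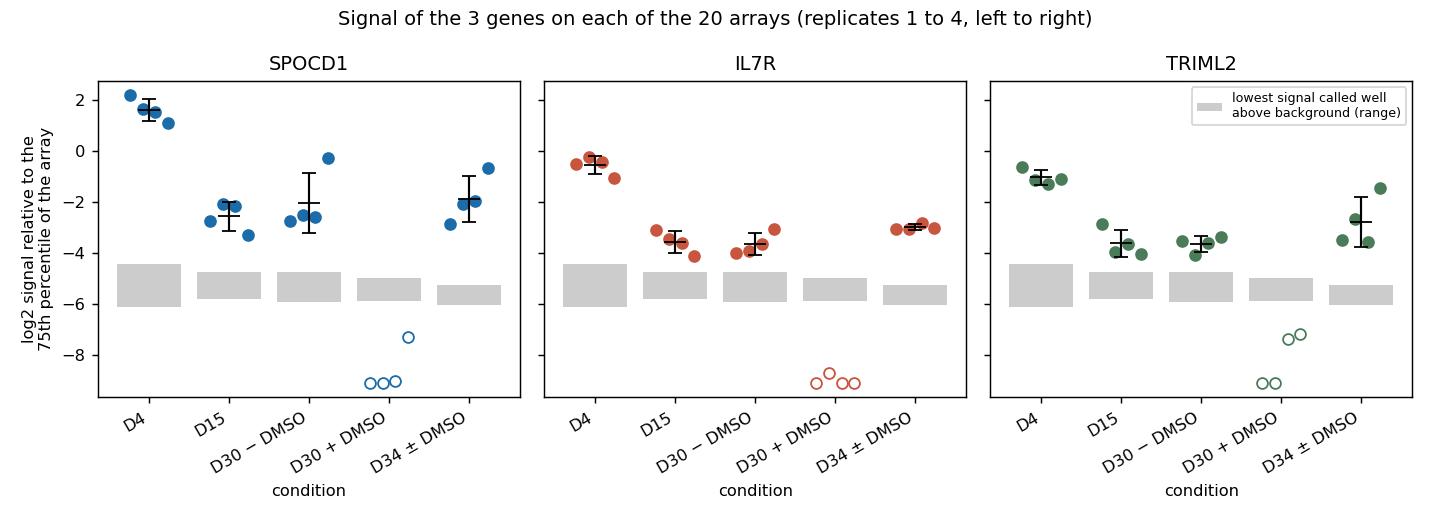
Log2 signal of SPOCD1, IL7R and TRIML2 relative to the 75th percentile of the array (y axis) on each of 4 arrays in 5 conditions (x axis). Filled points were well above background, open points were not and are drawn at no less than 1 scaled unit, black bars are the mean ± SD of log2 values, and grey boxes span the lowest signals that arrays of the condition called well above background. All open points lie at D30 + DMSO, and the D4 points are the highest in each panel.

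Expressed as a share of the mean at D4, SPOCD1 stood at 5.62% at D15, 10.4% at D30 − DMSO and 9.95% at D34 ± DMSO. IL7R stood at 12.5%, 11.8% and 18.3% in the same conditions, and TRIML2 at 17.3%, 16.5% and 35%. For D30 + DMSO only a nominal upper limit can be given, from the lowest signal well above background on each array. Some probes brighter than that level were not called well above background, so it is not a strict detection limit. These limits were 0.782% of the D4 mean for SPOCD1, 3.56% for IL7R and 4.99% for TRIML2. Single arrays set some of these shares. Without replicate 4, SPOCD1 stood at 5.16% at D30 − DMSO and 6.65% at D34 ± DMSO, and TRIML2 at 22.4% at D34 ± DMSO.

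The step from D4 to D15, before any DMSO, asks what happened to these genes as progenitors began to differentiate, and it is the only step whose arrays had no part in the choice of the genes. All 3 genes fell, and limma (4 arrays against 4, 1 model over 20 arrays, Benjamini-Hochberg adjustment) called all of them, a call being an adjusted p under 0.005 with a difference over 2-fold. Of the 22069 genes tested, 3.68% were called lower at this step and 5.78% higher. SPOCD1 fell by 4.18 on the log2 scale, 18.1-fold (SE 0.55, adjusted p = 1.22e-05 in limma). IL7R fell by 3.01, 8.05-fold (SE 0.23, adjusted p = 1.41e-08), and TRIML2 fell by 2.59, 6.02-fold (SE 0.47, adjusted p = 0.000355), both in limma. The spread behind these values came from all 20 arrays, which include those used in the choice. With only the D4 and D15 arrays, adjusted p was 3.21e-05, 5.56e-05 and 0.000198 for SPOCD1, IL7R and TRIML2 in limma. For each gene the D4 and D15 arrays did not overlap, and the exact two-sided permutation test gave p = 0.0286, the smallest that 4 arrays against 4 allow. The share of all genes without overlap was not counted, in this or the other comparisons, so non-overlap does not set the 3 genes apart. Counted from the largest fitted fall at this step, SPOCD1 was 13th, IL7R 68th and TRIML2 152nd of 22069 genes.

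Arrays of D4 and D15 shared slides 2, 3 and 4, so the fall could also be read within a slide. Within these slides the log2 difference of SPOCD1 was -4.93, -3.63 and -3.82. That of IL7R was -2.61, -3.01 and -2.79 and that of TRIML2 was -2.24, -2.68 and -2.72. Every within-slide difference was thus a fall of more than 4-fold, although each rests on 2 or 3 arrays. All 10 proliferation markers (MKI67, TOP2A, CDK1 and others) were called lower at the same step, with a median log2 difference of -2.87. The part of proliferation in the fall of the 3 genes was not tested.

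**Figure D2:**
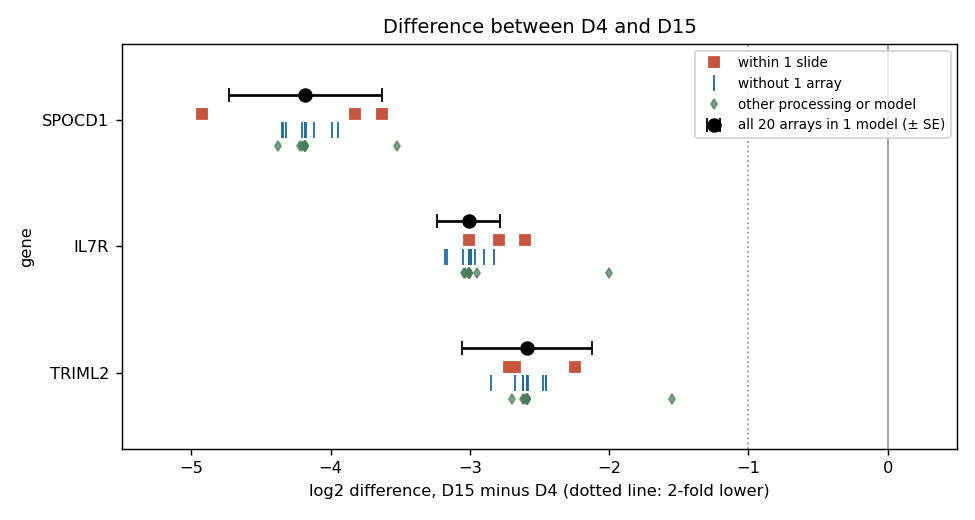
Log2 difference between D15 and D4 (x axis) for the 3 genes (y axis). Black points with bars are the estimate ± SE from all 20 arrays, squares are differences within 1 slide, ticks leave out 1 array and diamonds use another processing or model. Every symbol lies left of the dotted line of a 2-fold fall.

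From D15 to D30 − DMSO, a further 2 weeks of culture without DMSO, the means of the 3 genes moved by 0.54 (SPOCD1), -0.09 (IL7R) and -0.01 (TRIML2) on the log2 scale. Their arrays overlapped in each case, and this step is given without a test because D30 − DMSO arrays took part in the choice of the genes. limma called 0.00453% of all genes at this step, that is, 1 gene. Without replicate 4 of D30 − DMSO, the difference of SPOCD1 became -0.05.

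DMSO addition, D30 + DMSO against D30 − DMSO, is a contrast on which the 3 genes were chosen, and its values are therefore a description. The groups did not overlap for any of the 3. Since no D30 + DMSO array measured the genes, the falls are nominal bounds against the lowest signal well above background. That level lay between 9.34 and 17.1 units on these arrays, and brighter probes could go uncalled. Against that level, SPOCD1 was at least 9.89-fold lower with DMSO, IL7R at least 3.22-fold and TRIML2 at least 3.25-fold. Over all genes, 4.12% were called lower and 1.72% higher on DMSO addition. The fitted log2 differences, which depend on the floor of 1 unit, were -6.60, -5.34 and -4.55 for SPOCD1, IL7R and TRIML2, and ranked 1st, 9th and 20th among the 22069 genes from the largest fall.

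The bound for SPOCD1 leaned on 1 array. Without replicate 4 of D30 − DMSO it dropped to at least 6.58-fold, and without any other array of the contrast it lay between 8.74 and 11.7. For IL7R the bound without 1 array lay between 2.81 and 3.48, and for TRIML2 between 2.87 and 3.59. Slides 3 and 4 hold arrays of both conditions, and on each of them all D30 + DMSO arrays lay below the D30 − DMSO array for the 3 genes. On slide 3, the D30 − DMSO array read 81.8 for SPOCD1, 34.3 for IL7R and 47.5 for TRIML2, and on slide 4 it read 455, 65.2 and 53.2.

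DMSO removal, D34 ± DMSO against D30 + DMSO, shares the D30 + DMSO arrays with the addition contrast and was likewise used in the choice, so that the rise is described and not tested. Against the same nominal level, SPOCD1 was at least 10.9-fold higher after removal, IL7R at least 5.13-fold and TRIML2 at least 5.85-fold. The groups did not overlap. Over all genes, 4.88% were called higher and 2.11% lower. The fitted log2 rises were 6.74, 6.02 and 5.40, which ranked 1st, 3rd and 5th of 22069. Without replicate 4 of D34 ± DMSO, the bounds were 8.22-fold for SPOCD1, 5.18-fold for IL7R and 4.31-fold for TRIML2.

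Whether removal brought the genes back to the level of cultures never given DMSO was described from D34 ± DMSO and D30 − DMSO, where 1.52% of all genes were called, 1.31% higher and 0.208% lower. The log2 difference was 0.14 for SPOCD1, 0.67 for IL7R and 0.85 for TRIML2. For SPOCD1 the sign rested on single arrays, since leaving out replicate 4 gave 0.73 for the D30 − DMSO array and -0.27 for the D34 ± DMSO array. IL7R showed no overlap, and within slides 1, 3 and 4 its difference was 0.59, 1.07 and 0.05. TRIML2 overlapped, with differences of 0.94, 0.01 and 1.89 within the same slides. For SPOCD1 the SD of log2 values was 1.18 at D30 − DMSO and 0.90 at D34 ± DMSO, both well above the difference. For TRIML2 it was 0.31 at D30 − DMSO, below the difference, and 0.97 at D34 ± DMSO, above it.

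Transcripts that mark proliferation were also higher after removal. In limma, all 10 proliferation markers were called higher at D34 ± DMSO than at D30 + DMSO (median log2 difference 2.75), beside 4.88% of all genes. Against D30 − DMSO, 8 of 10 were called higher (median 2.58), beside 1.31% of all genes. The methods' t-test called 2 and 1 of the 10 in these comparisons. On DMSO addition, in contrast, 0 of the 10 were called by limma or the methods' t-test and 3 had an unadjusted p below 0.05 in limma (median -0.20). The summed signal of the 10 markers was 27850 to 34983 at D4, 7645 to 11208 at D15, 8746 to 11625 at D30 − DMSO, 7084 to 8899 at D30 + DMSO and 20731 to 29739 at D34 ± DMSO. Relative to D4, the median proliferation marker stood at 0.13 on the log2 scale at D34 ± DMSO, whereas the means of the 3 genes were 9.95% to 35% of their D4 means. The part of proliferation in the return of the 3 genes was not tested.

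**Figure D3:**
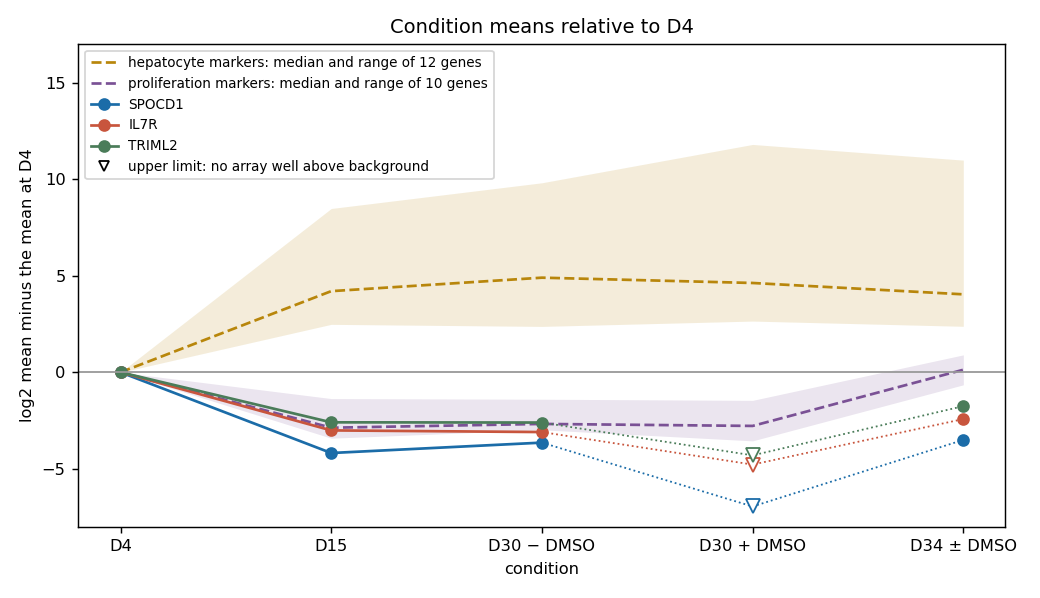
Log2 condition means minus the mean at D4 (y axis) for SPOCD1, IL7R and TRIML2, with the median (dashed) and range (shaded) of 12 hepatocyte and 10 proliferation markers, over the 5 conditions (x axis). Open triangles are nominal upper limits where no array was well above background. The 3 genes and the proliferation markers were both below D4 at D15, and the genes were not well above background at D30 + DMSO. At D34 ± DMSO the median proliferation marker was near its D4 level while the genes were not.

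The labelled cell type, hepatic stem cell, was set against marker lists. The 12 hepatocyte markers (ALB, APOA1, TTR and others) were well above background on every array from D15 onward, with all 12 called higher at D15 than at D4 (median log2 difference 4.2). Lymphocytes are the cells best known for IL7R. Of 16 lymphocyte markers on the array, 8 were tested and 0 were called by limma or the methods' t-test in each of the 5 comparisons, with at most 1 at an unadjusted p below 0.05. The 8 tested markers, PTPRC, CD2, CD3D, CD4, CD8A, CD79A, NKG7 and GZMB, were well above background on all 20 arrays. CD3G, ZAP70, MS4A1, CD79B and TRAT1 were well above background on 0 arrays, CD3E on 8 and LCK on 4. The summed signal of the list was 12430 to 21678 at D4, 15377 to 25150 at D15, 15981 to 21657 at D30 − DMSO, 21659 to 24531 at D30 + DMSO and 12556 to 24267 at D34 ± DMSO. The part of other cell types in the signal of IL7R was not tested. Of 12 germ cell markers on the array, 3 were tested and 0 were called by limma or the methods' t-test, with at most 2 at an unadjusted p below 0.05. Of the tested ones, SYCP1 and TEX11 were well above background on 20 arrays and PRM1 on 19. DDX4, DAZL, SYCP3, PIWIL1, TEX14, BOLL and TNP1 were well above background on 0 arrays, STRA8 on 1 and MAEL on 11. Of 10 biliary and progenitor markers, 7 were tested. Of these, 1 was called higher and 1 lower on DMSO addition (5.85% of all genes were called), 2 higher and 1 lower on removal (6.99% of all genes) and 1 higher from D4 to D15 (9.46%).

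Loss of signal in D30 + DMSO alone was uncommon. Of 18534 genes well above background on all 16 other arrays, 33 genes, or 0.178%, were well above background on none of the D30 + DMSO arrays. SPOCD1, IL7R and TRIML2 are 3 of these. Their place among the 33 draws on the D30 + DMSO values that chose them, and is a description only. The same pattern with D4 as the missing condition was seen for 55 genes, and with D15, D30 − DMSO or D34 ± DMSO for 0 genes. Among the 33 genes, 27 had their highest mean at D4, the members of the trio included, and 11 had a higher mean at D34 ± DMSO than at D30 − DMSO. The shares of all genes with these features were not counted, so the counts do not set the 33 apart. The bound on their fall with DMSO ran from 1.73-fold to 15.4-fold with a median of 3.68-fold. SPOCD1, at 9.89-fold, was above this median, and IL7R and TRIML2 were below it.

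The correlations between the 3 genes draw on the D30 − DMSO, D30 + DMSO and D34 ± DMSO values that chose them, and are given as a description only. Log2 values of SPOCD1 and IL7R correlated with r = 0.978 over 20 arrays, those of SPOCD1 and TRIML2 with 0.969 and those of IL7R and TRIML2 with 0.964. Without the 4 D30 + DMSO arrays, on which all were near the floor, r was 0.933, 0.892 and 0.893 over 16 arrays. These points share their conditions and arrays, and the 16 arrays still include those of D30 − DMSO and D34 ± DMSO.

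The presence of the 3 genes among each other's nearest genes draws on the same values. Over all 22069 genes, the 5 with the highest correlation with each gene over the 20 arrays overlapped. For SPOCD1 they were SYNC (0.981), a lincRNA of chromosome 4 (0.980), ABR (0.979), IL7R (0.978) and PLAUR (0.972), the receptor of urokinase. For IL7R they were ABR (0.983), PRTFDC1 (0.982), MELTF (0.981), SPOCD1 (0.978) and RGS19 (0.977). For TRIML2 they were ABR (0.971), SPOCD1 (0.969), CCDC74B (0.967), PRTFDC1 (0.966) and IL7R (0.964). ABR was the only gene outside the trio in all 3 lists. Its signal was 768 ± 71.1 at D4, 357 ± 42.2 at D15, 360 ± 54.1 at D30 − DMSO, 88.0 ± 3.40 at D30 + DMSO and 387 ± 87.8 at D34 ± DMSO (SD, n = 4), so that it stayed well above background on every array. With Spearman's rank correlation none of these genes was kept among the 5 nearest, and with quantile normalization 4 of 5 were kept for each of the 3 genes.

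None of the tested direct partners of IL7R passed the test on DMSO addition or removal, beside 5.85% and 6.99% of all genes called. At those shares, the partners are too few to be set apart from other genes. The ligand gene IL7 differed by -0.10 on the log2 scale on DMSO addition and by 0.50 on removal, with adjusted p = 0.900 and 0.312 in limma. IL2RG, the common gamma chain, differed in the opposite direction to IL7R, by 1.47 on addition and -1.33 on removal, but did not pass (limma, adjusted p = 0.0174 and 0.0265). The kinases JAK1 and JAK3 differed by -0.19 and -0.60 on addition, and STAT5A and STAT5B by -0.46 and 0.27, none of them called by limma. The probe of TSLP, the second ligand that uses the alpha chain, was well above background on 0 arrays.

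Of the 25 listed genes of the IL-7 receptor pathway, 24 were tested. On DMSO addition 0 were called higher and 1 lower, with a median log2 difference of -0.15, beside 0.04 over all genes and 4.12% of all genes called lower. That gene was PIK3CD, the delta catalytic subunit of phosphoinositide 3-kinase, nominally at least 1.70-fold lower with DMSO (limma, adjusted p = 5.73e-06). It was well above background on no D30 + DMSO array and on 3 of 4 D30 − DMSO arrays. On removal, where 4.88% of all genes were called higher, 1 gene was called higher and 0 lower. It was again PIK3CD, nominally at least 1.45-fold (limma, adjusted p = 8.91e-06), with 3 of 4 D34 ± DMSO arrays well above background. Both bounds are under the 2-fold threshold, which only the fitted log2 differences of -3.21 and 2.98 passed. With normexp background correction neither PIK3CD call was kept (adjusted p = 0.357 and 0.573). From D4 to D15, where 9.46% of all genes were called, 3 genes rose and 2 fell. FYN, a Src family kinase, rose by 5.44 on the log2 scale with 2 of 4 D4 arrays well above background, PTK2B by 1.45 and PIK3R1 by 1.11, while PIK3CD fell by 2.31 and SOCS2, a suppressor of cytokine signaling, fell by 1.16.

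Other cytokine receptor chains were listed for comparison with IL7R. Of 22 tested, 1 was called higher and 2 lower on addition (5.85% of all genes were called in either direction), and 3 higher and 1 lower on removal (6.99% of all genes). The methods' t-test called 1 of the 22 on addition and 0 on removal. IL27RA, a chain of the interleukin 27 receptor, fell by 1.80 on the log2 scale (SE 0.19) with DMSO and rose by 1.74 after removal. IL21R fell by 2.1 and rose by 2.69, with 1 of 4 D30 + DMSO arrays well above background, and neither call was kept with normexp. IL6R, the interleukin 6 receptor, did the opposite, with 1.42 on addition and -1.39 on removal. IL20RB rose by 1.12 on removal only, although its difference on addition was -1.12 (limma, adjusted p = 0.00564), and the rise was not called with quantile normalization, normexp or the deposited matrix. From D4 to D15, IL18R1 and IL22RA1 rose by 1.92 and 1.78 and no listed chain was called lower. OSMR, IL17RA and IL1R1 differed by -0.67, -0.64 and -0.56 at that step (limma, adjusted p = 0.00189, 0.00208 and 0.0201), short of the 2-fold threshold.

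Genes of the piRNA pathway, in which SPOCD1 acts in germ cells, were mostly not measurable. Of 28 listed, 26 are on the array and 11 were tested. PIWIL4, which guides the methylation, differed by 0.04 on DMSO addition and -0.40 on removal, and DNMT3L by -0.44 and -0.09, none called by limma, and TEX15 and C19orf84 had no probe matched by accession. On addition 1 gene was called lower and 0 higher, beside 4.12% of all genes called lower, and on removal 2 were called higher, beside 4.88%. TDRD9, a piRNA pathway helicase, fell by 2.95 on the log2 scale (SE 0.44) with DMSO and rose by 1.95 after removal, a rise not called with quantile normalization or normexp. Its D30 + DMSO arrays spread widely (37.1 ± 38.5, SD, n = 4), with 3 of 4 well above background. The methods' t-test called 0 of the 11 genes on addition, so it did not call the fall. UHRF1, which recruits the maintenance methyltransferase DNMT1 to replicating DNA, fell by 3.53 from D4 to D15 and rose by 4.12 on removal. DNMT1 fell by 1.13 from D4 to D15 and was not called with normexp, where its difference was -0.998. UHRF1 and DNMT1 are needed in dividing cells, and both were also called higher at D34 ± DMSO than at D30 − DMSO. Among 14 tested genes for proteins with a SPOC domain or related to TFIIS, the type of domain that names SPOCD1, limma and the methods' t-test called 0 in each of these comparisons, with 3 on addition, 4 on removal and 5 from D4 to D15 at an unadjusted p below 0.05 in limma.

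TRIML2 was compared with the TRIM proteins that carry a SPRY domain and with p53 targets. TRIML1, its neighbor and closest relative by name, was well above background on at most 1 array and was not tested. Of 26 TRIM genes tested, 0 were called higher and 1 lower on addition, 2 higher on removal, and 2 higher and 2 lower from D4 to D15, beside 5.85%, 6.99% and 9.46% of all genes called in either direction. TRIM47 fell by 1.79 (SE 0.14) on addition and rose by 1.75 on removal, and TRIM22 rose by 1.07 on removal, but by 0.93 and without a call with normexp. From D4 to D15, TRIM10 and TRIM15 rose by 2.26 and 2.02, and MID1 and TRIM6 fell by 1.45 and 1.12, although MID1 was not called with quantile normalization, normexp or the deposited matrix and TRIM6 was not called with normexp.

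All 30 p53 target genes were tested. On DMSO addition 1 was called lower, FDXR, by 1.05 on the log2 scale, with a median of -0.50 over the list beside 0.04 over all genes. On removal 7 were called higher and 0 lower (median 0.47), against 4.88% of all genes called higher. Of these, POLH rose by 1.64, PMAIP1 by 1.41, DDB2 by 1.36 and EDA2R by 1.34. From D4 to D15, 5 were called lower, among them GDF15, which fell by 1.85, PMAIP1 by 1.83, PLK2 by 1.64 and TIGAR by 1.13, the last not called with normexp. No listed p53 target fell as far as TRIML2 at that step. The methods' t-test called 0 of the 30 on addition, 3 on removal and 1 from D4 to D15. Over the 6 lists, 126 genes were tested, of which 1 was called higher and 6 lower on addition, 14 higher and 1 lower on removal, and 7 higher and 11 lower from D4 to D15. The share called lower on addition was 4.76% beside 4.12% of all genes, the share called higher on removal 11.1% beside 4.88%, and the share called lower from D4 to D15 8.73% beside 3.68%.

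**Figure D4:**
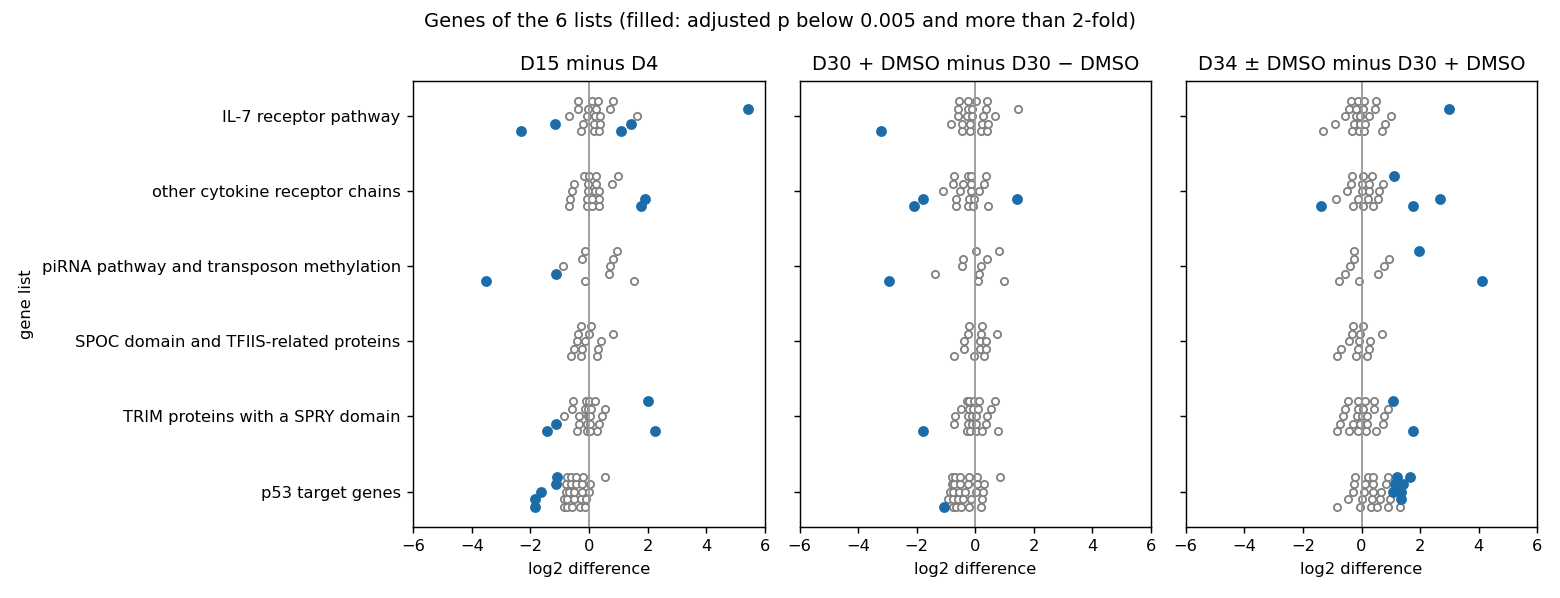
Log2 differences (x axes) of all tested genes in the 6 lists (y axis) for D15 against D4, DMSO addition and DMSO removal. Filled points passed an adjusted p of 0.005 and 2-fold in limma. On DMSO addition, 0.794% of the 126 genes were called higher and 4.76% lower, beside 1.72% and 4.12% of all genes. SPOCD1, IL7R and TRIML2 themselves are not drawn.

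None of the tested genes near SPOCD1 and IL7R was called on DMSO addition or removal, and no gene near TRIML2 could be tested. Of the 5 genes on either side of each locus in RefSeq, 30 in all, 9 were tested, 4 near SPOCD1, 5 near IL7R and 0 near TRIML2. limma called 0 of the 9 on DMSO addition and 0 on removal, beside 5.85% and 6.99% of all genes. At those shares, 9 genes are too few to set the neighbors apart from other genes. At an unadjusted p below 0.05 there were 0 and 1 in limma, and the methods' t-test also called 0. On addition, COL16A1, near SPOCD1, differed by -0.44 on the log2 scale, PTP4A2 by -0.09, and CAPSL and UGT3A1, near IL7R, by 0.02 and -0.09. From D4 to D15, where 9.46% of all genes were called, COL16A1, a collagen gene, fell by 1.35. PRLR, the prolactin receptor gene on the IL7R side, rose by 1.44. Neither call was kept under every alternative.

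**Figure D5:**
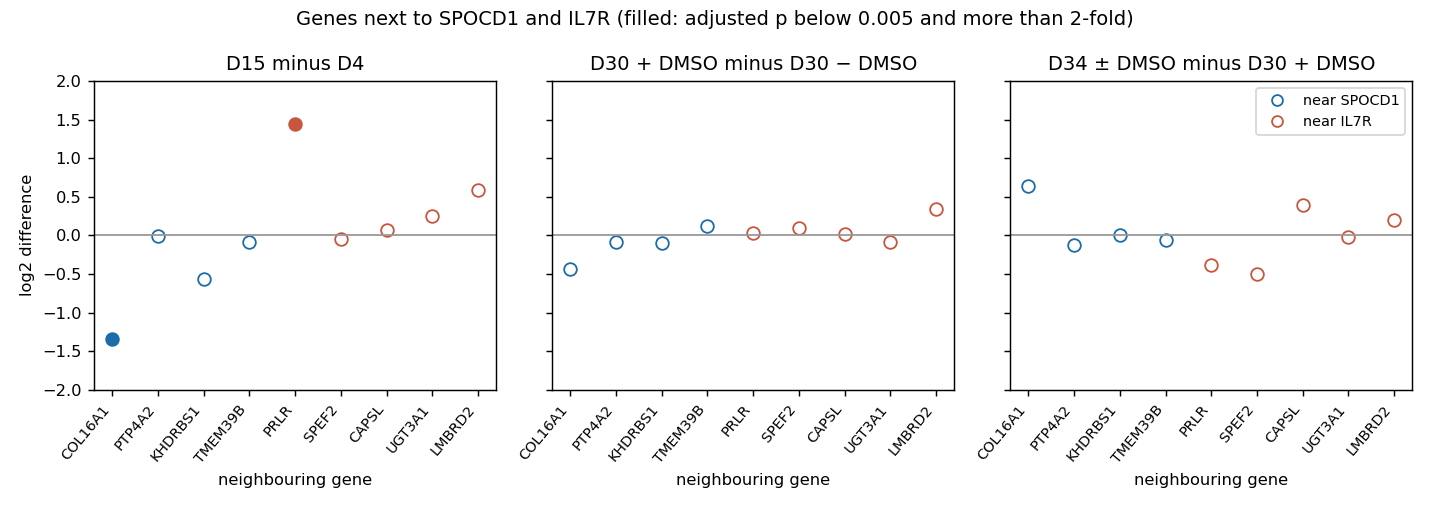
Log2 differences (y axis) of the 9 tested genes next to SPOCD1 and IL7R (x axis) for D15 against D4, DMSO addition and DMSO removal. Filled points passed an adjusted p of 0.005 and 2-fold in limma. On DMSO addition and removal no point is filled and all lie within 1 unit of 0.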

How the data were processed

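HepaRG RNA was measured on 20 one-color arrays, 4 for each of 5 conditions. The authors deposited the Feature Extraction output of each array (10.7.1.1 per the file headers, 10.7.3.1 in the submitters' processing notes), whose processed signal is an intensity from which local background and spatial trends had been removed, with no scaling across arrays. They also deposited flags, which are scores of 0 or 1 and other codes, and a matrix of log2 values, used as an alternative. In 21541 probes above background on every array, its values matched the log2 signal used here apart from 1 shift per probe and per array (median absolute difference 3.51e-07), its column medians ran from -0.204 to 0.171, and its baseline is not stated.

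Spots of a probe were averaged without outlier spots, scaled so that every array had the same 75th percentile, raised to 1 unit where lower and transformed to log2. Of 42405 probes, 24826 were named by RefSeq accession and the others kept the file's transcript name. A probe stayed in (26351 did) where some condition had it well above background on its 4 arrays, and the brightest probe per name left 22069, here called genes. One linear model with 5 condition means was fitted with limma 3.58.1 in R 4.3.3, and the calls used the thresholds of the methods, 0.005 for the p-value adjusted after Benjamini and Hochberg and 2-fold for the difference. An exact two-sided permutation test of 4 arrays against 4 was added for the 3 genes from D4 to D15. The fit was tested on simulated data. Depth is not defined for arrays, and their number limits precision.

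The 3 genes, the lists, the tests and the alternatives were chosen with earlier results of these data known. Named genes are the 3 genes, up to 4 called genes of a list per comparison, fixed partners of each gene, called neighbors and the 5 genes most correlated with each. Untested neighbors and motifs follow fixed lists, and promoters come from RefSeq, GRCh38.p14. Alternatives were quantile normalization, normexp, the deposited matrix, a floor of 10 units, slide or replicate blocks, other filters and other arrays in the fit. The methods' t-test, a cutoff of 0.05 for the adjusted p and leaving out each array were used as well. Counts of genes at an unadjusted p below 0.05 and shares of the D4 mean without each array were added after seeing the data. All deposited sample columns were assigned, and 0 were left out. The ChIP-seq experiments were not analysed here. The values of 1 lymphocyte marker are not reported here.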

Additional observations from a re-analysis of the deposited data

Results flagged for a closer look

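SPOCD1 on replicate 4 of D30 − DMSO read 455 units, against 81.8 to 96.0 on the other 3 arrays of that condition, a gap of 0.907 of the whole range. IL7R on replicate 3 of D34 ± DMSO read 78.1 units, against 66.4 to 67.3 on the other 3, a gap of 0.920 of a narrow range. The gaps are on the log2 scale, and both exceed the 95% critical value of Dixon's test for 4 samples. Of the 17 groups of 4 arrays examined in this way, for SPOCD1, IL7R, TRIML2 and ABR, 2 stood out, and chance gives about 1 in 20.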

How the results depend on the processing

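The fall of the 3 genes from D4 to D15 kept its direction and its call under all 10 alternatives that gave a value and without each array. Among the 10 was a looser cutoff, adjusted p below 0.05, which a called gene cannot fail. The highest adjusted p was 0.00122, 0.00151 and 0.00334 in limma or the methods' t-test. Under the alternatives, log2 differences ran from -4.38 to -3.52 for SPOCD1, from -3.04 to -2.0 for IL7R and from -2.70 to -1.55 for TRIML2. Without 1 array they ranged from -4.35 to -3.94, from -3.18 to -2.83 and from -2.85 to -2.45. Keeping only probes that were well above background throughout leaves the 3 genes out and gives no value. What the floor, the background correction and dimness limit is the size of the DMSO differences, not their direction. On addition, normexp gave -1.66, -0.58 and -0.56 for SPOCD1, IL7R and TRIML2 and a floor of 10 units gave -3.74, -2.12 and -2.14. On removal they gave 1.70, 0.90 and 1.01, and 3.88, 2.79 and 2.98. The deposited matrix gave -4.98 and 5.67 for IL7R, and normexp 0.32 for IL7R at D34 ± DMSO against D30 − DMSO. Normexp adds an offset of 50 and so compresses dim probes. Otherwise the cause was not tested. Without 1 array, the fitted addition differences lay from -7.04 to -6.01, -5.46 to -5.15 and -4.89 to -4.25, and the removal differences from 6.33 to 7.18, 5.96 to 6.12 and 4.96 to 5.74.

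Over all genes, normexp called 271 genes higher and 384 lower on addition, in place of 380 and 910, and the methods' t-test called 580 on addition, 499 on removal and 1107 from D4 to D15, in place of 1290, 1543 and 2088. Normexp called 1377 from D4 to D15 and 852 on removal, and the filter for all arrays 857 on addition. The 7 list genes called on addition became 4 with that filter, 4 with only the compared arrays and 2 by the t-test, which left 5 of 15 on removal. Without 1 array these counts were 5 to 9 and 12 to 15. The 2 neighbors called from D4 to D15 became 1 with normexp, without the filter, with the filter for all arrays and with only the compared arrays, 0 by the t-test, and 1 to 3 without 1 array. On removal 1 neighbor passed an unadjusted p below 0.05. With the replicate number as a block, SPOCD1, IL7R and TRIML2 differed from D4 to D15 by -4.18, -3.01 and -2.59, with adjusted p = 1.27e-05, 1.03e-07 and 0.000387 in limma, and the list genes called numbered 19, 9 and 17 for D4 to D15, addition and removal. The numbers were not taken as a pairing, since deviations of same-numbered arrays correlated with r from -0.311 to 0.796 (median 0.258, against -0.159 for other numbers). Same-slide arrays correlated with r from 0.116 to 0.796 (median 0.382, against -0.168 for other slides). The slide as a block changed no call of the 3 genes and raised the list genes called to 21, 10 and 19, from 18, 7 and 15.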
